A study of Mus musculus with 8 samples.

Results

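Apolipoproteins are the protein coat of lipoproteins, the particles in which liver and intestine export triglyceride and cholesterol into blood. APOB is the scaffold that cannot leave the very-low-density particle made by hepatocytes, APOA1 and APOA2 are the main proteins of high-density lipoprotein (HDL), and the smaller exchangeable members move between particles and steer them to lipases and receptors. Hepatocytes transcribe these genes at very high levels, and their proteins are made on the endoplasmic reticulum for secretion. Transcript levels of 10 of them, Apoa1, Apoa2, Apoa4, Apoa5, Apob, Apoc1, Apoc2, Apoc3, Apoe and Apom, are described here in mouse liver. They were taken by gene symbol, 10 of 56077 genes and loci in the count table, and all 10 passed the filter on low counts.

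The series holds RNA-seq of 4 livers of mice labelled eIF2α flox/+ (HET) and 4 livers of wild-type mice (WT). Mice of both groups were lean C57BL/6 animals aged 6 months, fed ad libitum under a 12/12 h light cycle and killed at 6:30 am in the fed state. eIF2α, encoded by Eif2s1, is the subunit of the translation initiation factor eIF2 whose phosphorylation slows protein synthesis under stress. The genotype is written Eif2a flox/+, the labels name no Cre recombinase, and the growth protocol calls all of the mice wild-type, so how the allele acts is unstated in the sources used here. Libraries are named H11, H12, H15 and H75 (HET) and W32, W33, W76 and W90 (WT), after the columns of the table. Nothing states that libraries are separate animals beyond their labels, so p-values measure the spread between these libraries.

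Library totals were 22178028 to 28564400 estimated counts in HET and 25626387 to 27799116 in WT. Eif2s1 averaged 22.2 ± 2.12 CPM (counts relative to the scaled total of the library) in HET and 30.0 ± 2.003 CPM in WT (SD, n = 4 each), and all HET libraries lay below all WT libraries. Its log2 fold change was -0.44 (SE 0.095, edgeR's quasi-likelihood test, Benjamini-Hochberg adjusted p = 0.315), and an exact two-sided permutation test gave p = 0.0286, the smallest that 70 assignments allow. Of 14261 genes tested, 0 (0%) passed an adjusted p under 0.05 in edgeR, 1332 (9.34%) had an unadjusted p under 0.05, DESeq2 called 150 (1.05%) and limma-voom 0. Library H15 stood apart from H12 and H75, and without it edgeR called 252 genes. Of the hepatocyte markers, 11 of 12 were in the table, with a summed level of 105815 to 114149 CPM in HET and 91358 to 116815 CPM in WT. At an unadjusted p under 0.05, 4 of the 11 were higher in HET and 0 lower, beside 4.9% and 4.44% of all genes, and their part in the members' levels was not tested. In bulk tissue, fewer cells of a type and less RNA per cell cannot be told apart.

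The apolipoprotein genes took 3.89 ± 0.144% of all counts in HET livers and 3.81 ± 0.377% in WT livers (SD, n = 4 each). Single libraries lay between 3.71 and 4.06% in HET and between 3.27 and 4.13% in WT, so the groups overlapped, and W76 was the lowest of the 8. Apoe alone supplied 46.2 to 48.0% of the members' counts in HET and 47.6 to 51.2% in WT. Counting error was small against the spread between libraries, since the lowest count of any member in any library was 1757, for Apoc2, and the highest was 550581, for Apoe.

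In CPM per kilobase of gene length, which allows levels of different genes to be compared, Apoe was highest in both groups. It averaged 15602 ± 1884 in HET and 14855 ± 1126 in WT. Apoa2 followed with 11061 ± 1699 in HET and 10395 ± 654 in WT, and Apoa1 with 7063 ± 987 in HET and 5241 ± 1765 in WT. Apoc1, Apoc3, Apoa5 and Apob came next in that order in both groups, Apob at 285 ± 34.1 in HET and 286 ± 13.4 in WT. Neighbours in this part of the order were separated within each group, with a single exception. In WT, Apoa1 and Apoc1 overlapped, because Apoa1 was as low as 3523 in W76 while Apoc1 reached 4029 in W32.

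The order differed between groups only among the 3 lowest members. In HET it was Apom (172 ± 34.3 CPM per kilobase), Apoc2 (157 ± 18.3) and Apoa4 (137 ± 44.3), and the ranges of neighbours overlapped. In WT it was Apoa4 (199 ± 68.9), Apoc2 (170.3 ± 21.2) and Apom (106 ± 30.9). There the lowest Apoc2 library, at 143, lay above the highest Apom library, at 135, while Apoa4 overlapped both Apob above it and Apoc2 below it. The place of Apoc2 depends on how reads were divided between it and an overlapping gene model, described further on.

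None of the 10 genes passed an adjusted p under 0.05 in the comparison of HET with WT, by edgeR's quasi-likelihood test, DESeq2 (which called 1.05% of all genes) or limma-voom. At an unadjusted p under 0.05 edgeR counted 1 of 10, Apom, beside 9.34% of all genes tested. Log2 fold changes were positive for 7 genes and negative for 3, and their median was 0.096, beside 0.0051 over all genes. Groups did not overlap for 1 of 10 members, again Apom, beside 4.38% of all genes. The authors' deposited table, which shares 13972 genes with those tested here, called 74 genes and none of the 10. With so few called, this says little about the members. The log2 fold changes of that table had the signs found here for all 10. The direction of that table was itself read from such agreement over all genes, so the shared signs are no separate support. Apom, Apoa1 and Apoa4 had log2 fold changes beyond 0.4 in size and also the widest spread between libraries, and the other 7 varied by less than 1.5-fold over all 8 livers.

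**Figure D1:**
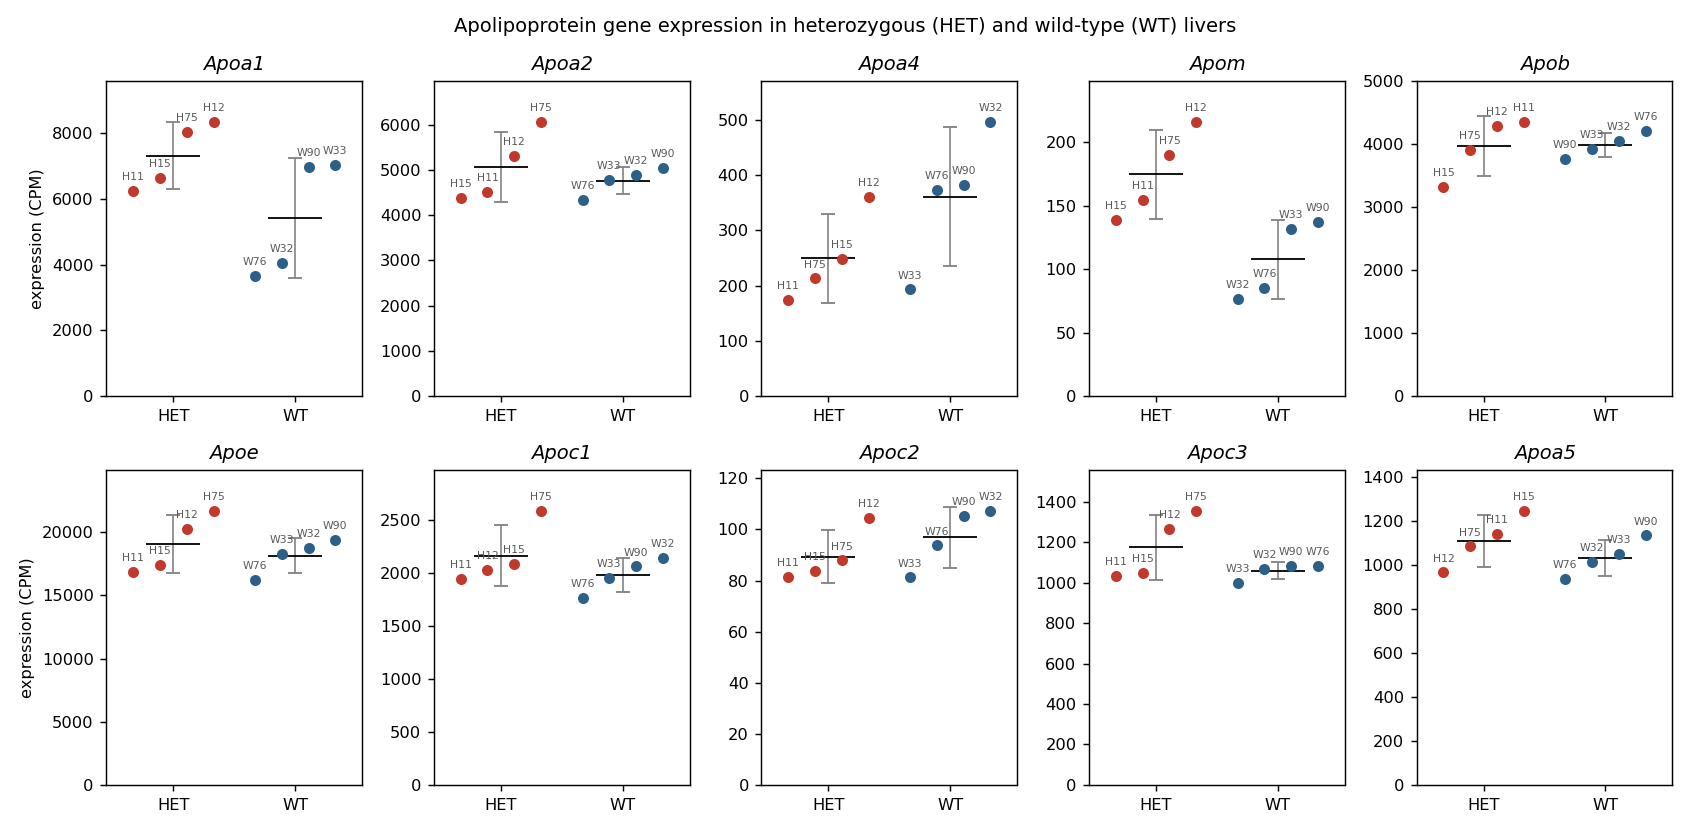
Expression of the 10 apolipoprotein genes in CPM (vertical axes, each from 0) in 4 HET and 4 WT livers. Points are named libraries, the black line is the group mean and the bar its SD. Apom is the gene whose HET points (138 to 216 CPM) all lie above its WT points (76.5 to 137 CPM), and Apoa1 and Apom share their lowest livers, W32 and W76.

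Apom encodes apolipoprotein M, a lipocalin of HDL that carries sphingosine-1-phosphate. Apom (ENSMUSG00000024391, chr17:35128997-35132050, minus strand, GRCm38) had 154, 216, 138 and 189.5 CPM in H11, H12, H15 and H75, against 76.5, 132, 84.9 and 137 CPM in W32, W33, W76 and W90. Every HET liver was above every WT liver, but the margin was narrow, 138.4 CPM in H15 against 137.0 CPM in W90. The WT livers fell into a low pair, W32 and W76, and a higher pair close to H15. The log2 fold change was 0.70 (SE 0.21, 95% interval 0.22 to 1.17), a fold of 1.62, with an unadjusted p of 0.00860 and a Benjamini-Hochberg adjusted p of 0.405 in edgeR. By unadjusted p it ranked 302 of the 14261 genes. DESeq2 gave it an adjusted p of 0.0889 and it stood at 0.0900 in the authors' deposited table. As a share of all counts, with no scaling between libraries, Apom took 0.0147 to 0.0196% in HET and 0.00808 to 0.0141% in WT, again without overlap.

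Apoa1 encodes the main structural protein of HDL, which also activates the cholesterol-esterifying enzyme LCAT. Apoa1 (ENSMUSG00000032083, chr9:46228580-46230466, plus strand) had 6248, 8328, 6639 and 8026 CPM in H11, H12, H15 and H75, against 4053, 7020.25, 3646 and 6978 CPM in W32, W33, W76 and W90. All HET livers were above the WT mean of 5424 CPM, but W33 and W90 lay above H11 and H15, so the groups overlapped. The WT spread was 33.7% of the mean, against 14.0% in HET. For Apoa1 the log2 fold change was 0.43 (SE 0.23, 95% interval -0.083 to 0.94, edgeR adjusted p = 0.599), and it was 0.28 without W76 and 0.58 without W33. The 2 WT livers that were low for Apom, W32 and W76, were also the low ones for Apoa1. These libraries had the highest shares of mitochondrial and ribosomal RNA, 7.50 and 7.36% of counts, against 5.34 to 6.45% in HET and 6.50 to 6.71% in the other WT livers. With those genes left out of the library sizes, which changes the scaling alone, the log2 fold changes were 0.70 for Apom and 0.43 for Apoa1. The part of that share in the levels was not tested.

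Apoa2 encodes the second most abundant protein of HDL. Apoa2 (ENSMUSG00000005681, chr1:171225054-171226379, plus strand) had 4519, 5316, 4374 and 6054 CPM in H11, H12, H15 and H75, against 4889.8, 4769.8, 4343 and 5040.3 CPM in W32, W33, W76 and W90. H12 and H75 were above all WT livers, and H11 and H15 lay within the WT range. The log2 fold change was 0.090 (SE 0.13, 95% interval -0.20 to 0.38, edgeR adjusted p = 0.859), and it was -0.0098 with library totals alone as scaling.

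Apoa4 encodes apolipoprotein A-IV, made by enterocytes and, in mice, also by hepatocytes, and found on chylomicrons and HDL. Apoa4 (ENSMUSG00000032080, chr9:46240696-46243459, plus strand) had 174, 361, 248 and 213 CPM in H11, H12, H15 and H75, against 496, 193, 373 and 383 CPM in W32, W33, W76 and W90. All HET livers were below the WT mean of 361.2 CPM, H12 only just at 361.0 CPM, but W33 was lower than 3 of the 4 HET livers. Apoa4 varied more than any other member, 2.85-fold from the lowest liver to the highest. Its estimate as log2 fold change was -0.54 (SE 0.29, 95% interval -1.18 to 0.11, edgeR adjusted p = 0.601), and it was -0.34 without W32 and -0.77 without H12.

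Markers of enterocytes, which share Apoa4, Apoa1 and Apob with the liver, were looked at beside this. Sis, Alpi and Fabp6 were at 0 in every library and 5 of 8 were under 0.5 CPM, so their sum rests on Fabp2, Vil1 and Anpep. The summed level of the 8 markers was 120.2 to 149 CPM in HET and 151 to 193 CPM in WT. Of the 8, 2 were tested and 1 was lower in HET at an unadjusted p under 0.05, beside 4.44% of all genes. The part of this sum in the Apoa4 values was not tested. Exons of Apoa4 overlap Gm10680 and Gm47528 on the other strand. Gm10680 had at most 8 counts in HET and 3 in WT, and Gm47528 at most 54 in HET and 32 in WT. The use of strand in counting is unstated, and these counts do not show how reads in the shared exons were assigned.

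Apob encodes the non-exchangeable scaffold of very-low-density lipoprotein and chylomicrons, and it also serves as a ligand for particle uptake. Apob (ENSMUSG00000020609, chr12:7977648-8016835, plus strand) had 4349, 4290.05, 3316 and 3902 CPM in H11, H12, H15 and H75, against 4053, 3929, 4207 and 3767 CPM in W32, W33, W76 and W90. H15 was the lowest of the 8 livers and H11 and H12 were the highest, so the HET values enclosed the WT values. On the log2 scale the fold change was -0.0090 (SE 0.12, 95% interval -0.27 to 0.25, edgeR adjusted p = 0.991). It was 0.068 without H15.

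Mouse liver edits Apob mRNA. The deaminase APOBEC1 turns a cytidine in a glutamine codon into uridine, which makes a stop codon and gives the short form APOB48. The site is shown because it is where the regulator Apobec1, described further on, acts on a member. It lies in exon 26 of 29, codon 2179 of the reading frame, and was found in the transcript as the single in-frame CAA codon with the mooring motif TGATCAG starting 5 bases after its C. Capitals mark the edited base, at position 8008054, and the motif.
Apob editing site, chr12:8008046-8008075, plus strand, GRCm38: acgcgataCaattTGATCAGtatattaaag
Counts per gene do not separate edited from unedited mRNA, so the edited share was not measured.

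Apoe encodes the ligand by which remnant particles are taken up by the liver, and macrophages express it as well as hepatocytes. Apoe (ENSMUSG00000002985, chr7:19696109-19699188, minus strand) had 16864, 20252, 17402 and 21682 CPM in H11, H12, H15 and H75, against 18753, 18256, 16189 and 19354 CPM in W32, W33, W76 and W90. H12 and H75 were above all WT livers, while H11 and H15 lay within the WT range. Apoe had a log2 fold change of 0.071 (SE 0.13, 95% interval -0.22 to 0.36, edgeR adjusted p = 0.894), and with library totals alone it was -0.026. Summed markers of Kupffer cells and macrophages had 149 to 331 CPM in HET and 141 to 337 CPM in WT, with 0 of 12 at an unadjusted p under 0.05.

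The C apolipoproteins and APOA5 set how fast lipoprotein lipase clears triglyceride. APOC2 is the cofactor that the lipase needs, APOC3 and APOC1 slow lipolysis and uptake, and APOA5 favours lipolysis. Apoc2 (ENSMUSG00000002992, chr7:19671579-19677941, minus strand) had 81.4, 104.5, 83.8 and 87.9 CPM in H11, H12, H15 and H75, against 107, 81.2, 93.7 and 105 CPM in W32, W33, W76 and W90. Only H12 was above the WT mean. Its log2 fold change was -0.12 (SE 0.12, 95% interval -0.38 to 0.15, edgeR adjusted p = 0.786). Exons of Apoc2 overlap those of Gm44805 on the same strand, a gene model that spans Apoc2 and Apoc4 and whose count reached 46.0% of that of Apoc2, so the Apoc2 level depends on how reads were divided between them.

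Apoc3 (ENSMUSG00000032081, chr9:46232933-46235636, minus strand) had 1033, 1265, 1047 and 1355 CPM in H11, H12, H15 and H75, against 1069, 998, 1084 and 1083 CPM in W32, W33, W76 and W90. H12 and H75 were above all WT livers and H11 and H15 were not. The WT livers were the tightest of any member, with a spread of 3.88% of the mean, against 13.6% in HET. The log2 fold change was 0.15 (SE 0.11, 95% interval -0.10 to 0.40, edgeR adjusted p = 0.705).

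Apoc1 (ENSMUSG00000040564, chr7:19689481-19692660, minus strand) had 1947, 2031, 2089 and 2589 CPM in H11, H12, H15 and H75, against 2143, 1954, 1769.9 and 2064 CPM in W32, W33, W76 and W90. H75 alone was above the WT range, and the log2 fold change was 0.13 (SE 0.12, 95% interval -0.14 to 0.40, edgeR adjusted p = 0.770). Apoa5 (ENSMUSG00000032079, chr9:46268633-46271919, plus strand) had 1141, 967, 1247 and 1085 CPM in H11, H12, H15 and H75, against 1014, 1051, 938 and 1136 CPM in W32, W33, W76 and W90. H11 and H15 were above all WT livers and H12 was below 3 of them. Its log2 fold change was 0.10 (SE 0.11, 95% interval -0.14 to 0.35, edgeR adjusted p = 0.801).

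**Figure D2:**
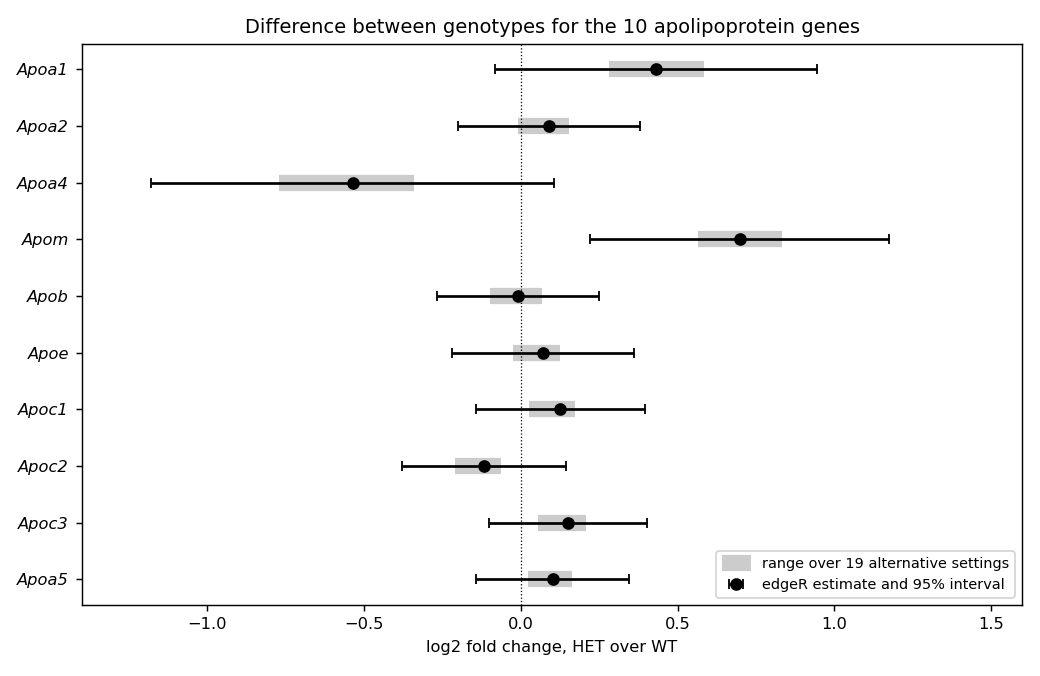
Log2 fold change, HET over WT, of the 10 genes (horizontal axis). Points are edgeR estimates, black bars 95% intervals and grey bars the range over 19 alternative settings. The interval of Apom (0.22 to 1.17) is the one that lies clear of 0.

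Within the HET group, the same livers were often high. H12 and H75 were the highest HET livers for 6 members, Apoa1, Apoa2, Apoc2, Apoc3, Apoe and Apom. Their scaling factors were the lowest of the 8, 0.909 and 0.900, against 0.9997 to 1.06 for the other 6 libraries, which raises CPM values in both. Summed neutrophil markers were also highest there, at 10.1, 39.7, 4.16 and 21.6 CPM in H11, H12, H15 and H75, against 1.999 to 4.97 CPM in WT, and all 3 of the 6 markers that could be tested were higher in HET at an unadjusted p under 0.05, beside 4.9% of all genes. The other 3, Ly6g, Ngp and Camp, were under 0.5 CPM, so the sum rests on S100a8, S100a9 and Lcn2 and is not a measure of neutrophil number. The part of either in the members' levels was not tested. With library totals alone as scaling, the median log2 fold change over all genes shifted by -0.0845, Apoa2 and Apoe turned negative as given above, and Apom stayed at 0.60.

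Profiles over the 8 libraries were compared by the root mean square difference of centred log2 CPM, in which 0 means identical ups and downs. Apoa2 and Apoe were the nearest pair of members, at 0.041, and Apoa1 and Apom differed by 0.17. Apoa4 and Apom were the farthest pair, at 0.87. Among the 7365 other genes with a mean of at least 10 CPM, those nearest to Apom were Bok, a BCL2 family member, Igfbp2, a binding protein of insulin-like growth factors, Apoa1, Fgb, the fibrinogen beta chain, and C8a, a chain of complement C8. Their differences from Apom were 0.125, 0.127, 0.171, 0.184 and 0.192 in that order. Those nearest to Apoa4 were Tfrc, the transferrin receptor (0.207), Tubb2a, a beta-tubulin (0.260), the unannotated locus MSTRG.9244 (0.304), Frmd4b (0.306) and the gene model Gm14296 (0.309). The genes near Apoa4 were thus less close to it than those near Apom, and all members and neighbours here share the same 8 libraries and scaling.

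**Figure D3:**
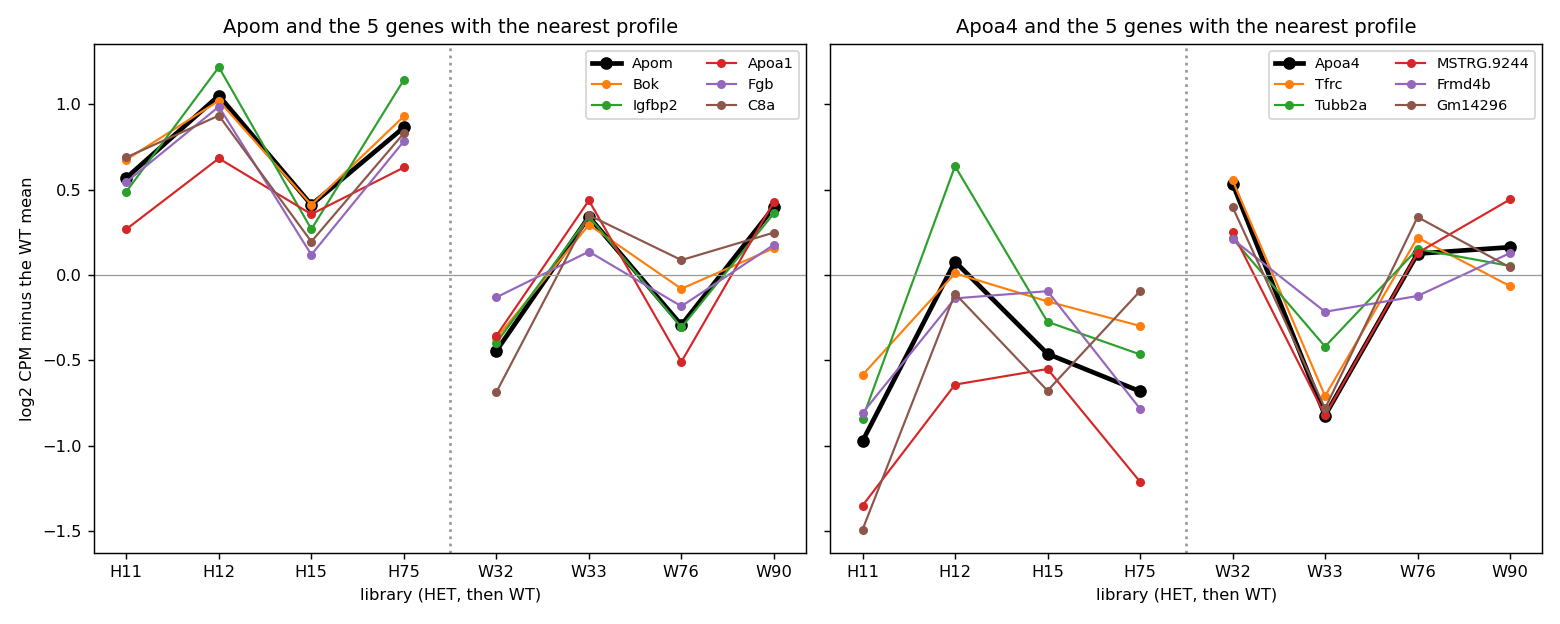
Log2 CPM minus the WT mean (vertical axis) in each library, HET then WT, for Apom (left, black) and Apoa4 (right, black) with the 5 genes of nearest profile. Lines only join the points of a gene. Apom and its nearest genes lie below the WT mean in W32 and, except for C8a, in W76, while Apoa4 and its nearest genes lie below it in W33.

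Several of the genes lie together in the genome. Apoa1, Apoc3, Apoa4 and Apoa5 occupy 43.3 kb of chromosome 9, with Apoc3 on the opposite strand, and Apoc2, Apoc1 and Apoe occupy 27.6 kb of chromosome 7. On chromosome 9 the estimates of Apoa1 (0.43) and Apoa4 (-0.54) had opposite signs over a gap of 10.2 kb, with Apoc3 between them at 0.15. On chromosome 7 the 3 members lay between -0.12 and 0.13.

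Of 39 other genes within 50 kb of a member, 26 were tested and 0 passed in edgeR. At an unadjusted p under 0.05 there were 3 higher and 0 lower, beside 4.9% and 4.44% of all genes. Relb, an NF-kappaB subunit that lies beyond Clptm1 from Apoc2, had 2.33, 11.1, 2.21 and 7.50 CPM in HET livers and 0.929 to 1.499 CPM in WT livers (log2 fold change 2.28, SE 0.52, edgeR adjusted p = 0.351, DESeq2 adjusted p = 0.00127). For Nectin2, a cell adhesion gene beyond Apoe, the log2 fold change was 0.34 (SE 0.12). Near Apoa2, it was 0.58 (SE 0.23) for Pcp4l1 and -0.22 (SE 0.098) for Ppox, a heme synthesis gene. Apoc4, between Apoc2 and Apoc1, had 414.6 ± 57.9 CPM in HET and 358 ± 21.4 CPM in WT (log2 fold change 0.21, SE 0.11, edgeR adjusted p = 0.601).

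**Figure D4:**
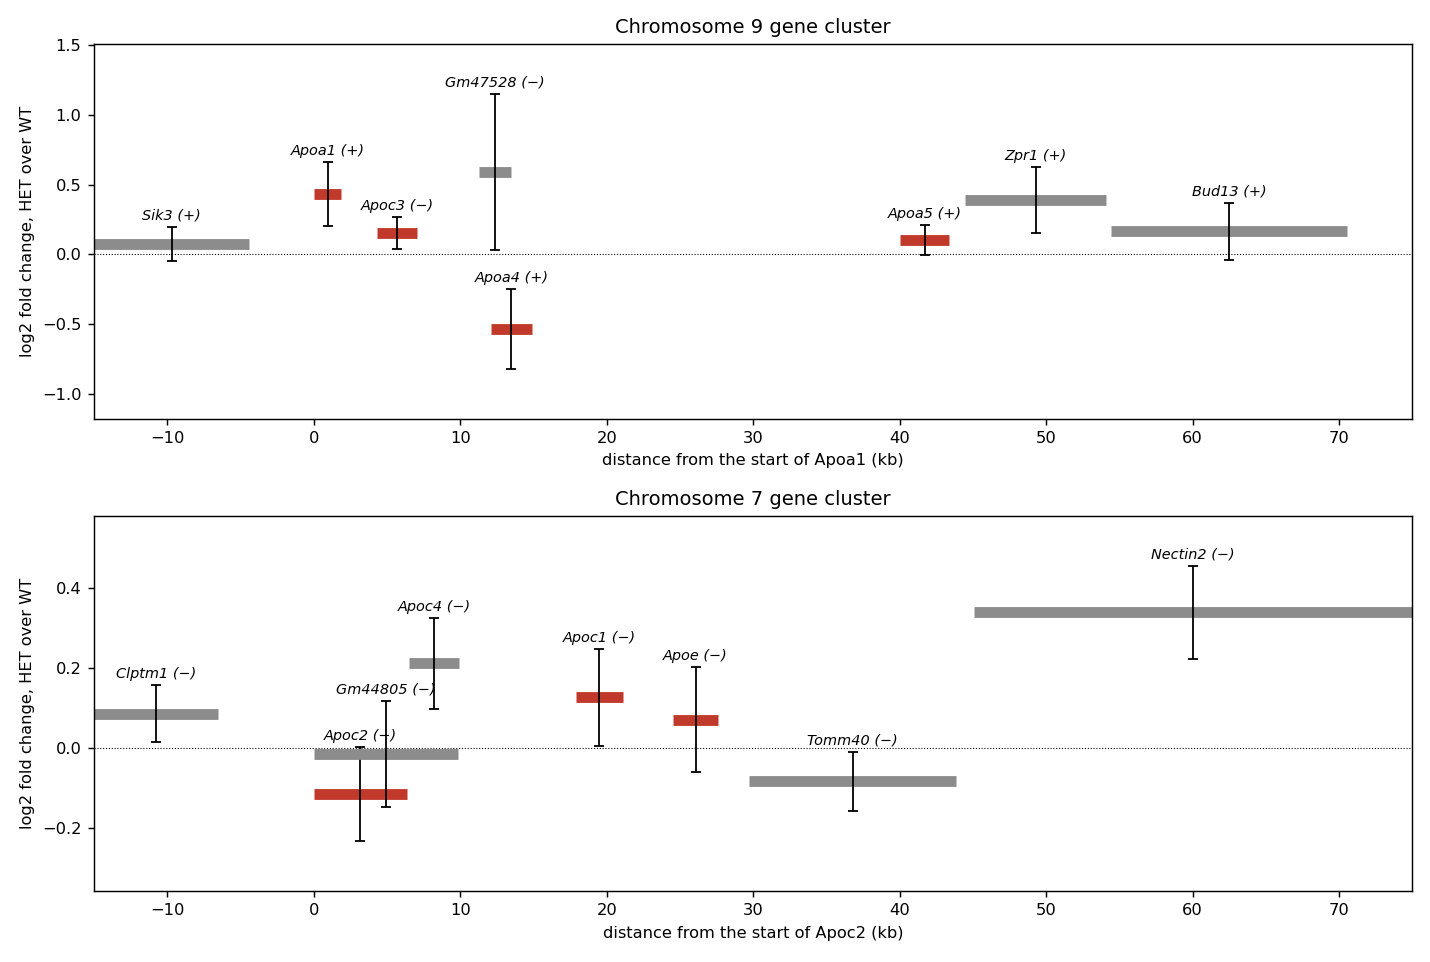
Log2 fold change, HET over WT (vertical axis, bars SE), of the tested genes of the chromosome 9 and chromosome 7 clusters against distance from the start of Apoa1 or Apoc2 in kb. Horizontal bars span each gene, red for the 10 apolipoprotein genes and grey for others, and signs give the strand. Apoa1 at 0.43 and Apoa4 at -0.54 lie within 1 cluster.

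Promoters of Apoa1 and Apoa5, members of the chromosome 9 cluster with positive estimates, are shown. RefSeq promoter windows on GRCm38.p6 were found for 8 of the 10 genes, not for Apoc1 and Apoc3. Apoa4, the member of this cluster with a negative estimate, is not shown because all upstream bases of its window lie in exons. Only bases upstream of the annotated start and outside GENCODE exons are printed, 5′ to 3′, and capitals mark an E-box, CACGTG, and a TATA box, TATAAA.
Apoa1, chr9:46228380-46228579, plus strand: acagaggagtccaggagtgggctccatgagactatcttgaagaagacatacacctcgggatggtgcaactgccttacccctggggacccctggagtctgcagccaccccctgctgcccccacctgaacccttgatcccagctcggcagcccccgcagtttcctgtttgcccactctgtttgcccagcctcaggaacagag
Apoa5, chr9:46268358-46268607, plus strand: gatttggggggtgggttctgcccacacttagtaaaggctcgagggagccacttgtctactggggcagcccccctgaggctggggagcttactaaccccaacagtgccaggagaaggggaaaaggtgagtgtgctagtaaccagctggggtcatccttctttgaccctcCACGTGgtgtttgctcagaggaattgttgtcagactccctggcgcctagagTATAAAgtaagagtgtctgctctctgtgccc
Over the whole windows and both strands, the E-box CACGTG, bound by USF factors, was found in 1 of the 8 genes, Apoa5, and in 8.09% of 27025 mouse genes. TATAAA was found in 4, Apoa2, Apoa5, Apob and Apoe, and in 15.7% of mouse genes. The core CAAAGNNCA of a direct repeat of the kind bound by HNF4 was found in 2, Apoa4 and Apob, and in 7.27% of mouse genes. CCAAT was found in Apoa2 alone and in 41.1% of mouse genes, and neither the AP-1 letters TGANTCA (8.97%) nor the EGR letters GCGNGGGCG (6.27%) were found in any of the 8. A match is a run of letters, not a measured site.

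Other genes of lipoprotein metabolism were read in 6 lists of 107 genes, of which 92 were tested. Of these, 0 passed in edgeR, 3 in DESeq2 (beside 1.05% of all genes) and 0 in limma-voom. At an unadjusted p under 0.05 there were 9 higher and 4 lower, beside 4.9% and 4.44% of all genes, and the median log2 fold change was 0.010, beside 0.0051 over all genes. Groups did not overlap for 3 higher and 3 lower genes, beside 2.06% and 2.32% of all genes.

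Of 21 other genes named as apolipoproteins, 10 were tested. With an unadjusted p below 0.05, 1 lay higher and 1 lower, beside 4.9% and 4.44% of all genes. Clu, which encodes the extracellular chaperone clusterin or apolipoprotein J, averaged 1337 ± 253 CPM in HET and 1048 ± 97.4 CPM in WT (log2 fold change 0.35, SE 0.14, edgeR adjusted p = 0.502). Apol7a averaged 70.7 ± 1.36 CPM in HET and 83.0 ± 7.17 CPM in WT, and all HET livers lay below all WT livers (log2 fold change -0.23, SE 0.084, edgeR adjusted p = 0.464). Apol9a was at 39.7 ± 15.1 CPM in HET and 28.7 ± 8.82 CPM in WT, with overlap.

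Of 18 genes of APOB particle assembly and secretion, all were tested, and their median log2 fold change was -0.0089. Here 1 lay higher and 1 lower with an unadjusted p below 0.05, beside 4.9% and 4.44% of all genes. Mia2, whose protein helps load large cargo at endoplasmic reticulum exit sites, averaged 264 ± 14.7 CPM in HET and 299.6 ± 11.1 CPM in WT without overlap (log2 fold change -0.18, SE 0.082, edgeR adjusted p = 0.529). Vmp1, needed for lipoprotein release from the endoplasmic reticulum membrane, averaged 111 ± 28.9 CPM in HET and 85.7 ± 4.65 CPM in WT (log2 fold change 0.37, SE 0.16, edgeR adjusted p = 0.525). Tm6sf2, which aids lipidation of the particle, was at -0.33 (SE 0.21) in log2 fold change, and the chaperone gene Dnajc3 at 0.27.

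Among 6 genes of Apob mRNA editing, 1 was higher at an unadjusted p under 0.05, beside 4.9% of all genes. Apobec1, the deaminase acting at the site shown above, had 22.7, 44.5, 16.4 and 30.2 CPM in H11, H12, H15 and H75, against 15.3, 15.9, 18.3 and 15.1 CPM in W32, W33, W76 and W90. H11, H12 and H75 were above all WT livers and H15 was within their range. This gave a log2 fold change of 0.82 (SE 0.26, 95% interval 0.24 to 1.39, edgeR adjusted p = 0.410), and it was 0.51 without H12. Without H15, when edgeR called 252 genes in all, Apobec1 was at 1.01 with an adjusted p of 0.0413. Its RNA-binding cofactors were on the other side of 0, with log2 fold changes of -0.30 (SE 0.14) for Rbm47 and -0.26 (SE 0.22) for A1cf, as was the RNA-binding protein gene Celf2 (-0.24, SE 0.20), and groups overlapped for each.

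Of 15 genes of HDL formation and remodelling, 12 were tested. Those with an unadjusted p below 0.05 were 2 higher and 0 lower, beside 4.9% and 4.44% of all genes. Gpld1, a phospholipase that circulates on HDL, averaged 276 ± 8.67 CPM in HET and 234 ± 17.99 CPM in WT without overlap (log2 fold change 0.24, SE 0.086, edgeR adjusted p = 0.461). As a share of all counts, with no scaling between libraries, the groups overlapped for Gpld1, from 0.0247% in HET and up to 0.0267% in WT. Scarb1, the HDL receptor of hepatocytes, averaged 118 ± 9.73 CPM in HET and 95.3 ± 13.5 CPM in WT (log2 fold change 0.31, SE 0.11, edgeR adjusted p = 0.476). Lcat, the enzyme that APOA1 activates, had 279 ± 29.3 CPM in HET and 241 ± 15.5 CPM in WT (log2 fold change 0.21, SE 0.10, edgeR adjusted p = 0.552). Pltp, which transfers phospholipid to HDL, had 31.5, 16.1, 131 and 21.96 CPM in H11, H12, H15 and H75, against 139, 132, 72.1 and 147.5 CPM in W32, W33, W76 and W90. H15 was within the WT range and the other HET livers were far below it. The log2 fold change was -1.29 (SE 0.59, edgeR adjusted p = 0.544). Leaving H15 out gave -2.40 with an edgeR adjusted p of 0.00612, when edgeR called 252 genes in all. That omission removes the HET liver that lay within the WT range, so it is no separate support for a difference.

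Of 17 genes of lipoprotein receptors and uptake, 16 were tested, and their median log2 fold change was -0.042. Vldlr was barely expressed, at 0.615 ± 0.617 CPM in HET and 1.68 ± 0.965 CPM in WT. Mylip, which encodes an E3 ubiquitin ligase, was at 0.45 (SE 0.22) in log2 fold change, and Lrpap1, a receptor chaperone, at -0.22 (SE 0.11).

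Of 30 transcription factors and coregulators known to act on apolipoprotein genes, all were tested. There were 4 higher and 1 lower with an unadjusted p below 0.05, beside 4.9% and 4.44% of all genes. Hnf4a, the nuclear receptor that drives many hepatocyte genes including Apoa1, Apob and Apoc3, averaged 633 ± 76.9 CPM in HET and 516 ± 19.6 CPM in WT (log2 fold change 0.30, SE 0.11, edgeR adjusted p = 0.458). The groups did not overlap, but the margin was narrow, 538.3 CPM in H15 against 536.8 CPM in W32. Creb3l3, a membrane-bound factor of the endoplasmic reticulum that activates Apoa4, Apoa5 and Apoc2 in mice, averaged 274 ± 64.0 CPM in HET and 204 ± 3.96 CPM in WT, with H15 below all WT livers. Its log2 fold change was 0.42 (SE 0.16, edgeR adjusted p = 0.479) and as low as 0.33 with another library left out. Without H15, when edgeR called 252 genes in all, Creb3l3 was at 0.58 with an adjusted p of 0.0141. Egr1, an immediate-early factor, had 36.2, 374, 51.7 and 89.3 CPM in HET livers and 7.26 to 12.5 CPM in WT livers, and Jun 29.4 ± 8.50 CPM in HET and 15.5 ± 3.51 CPM in WT. Both passed in DESeq2, with adjusted p of 0.000316 and 0.0190, and neither in edgeR, at 0.220 and 0.354.

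**Figure D5:**
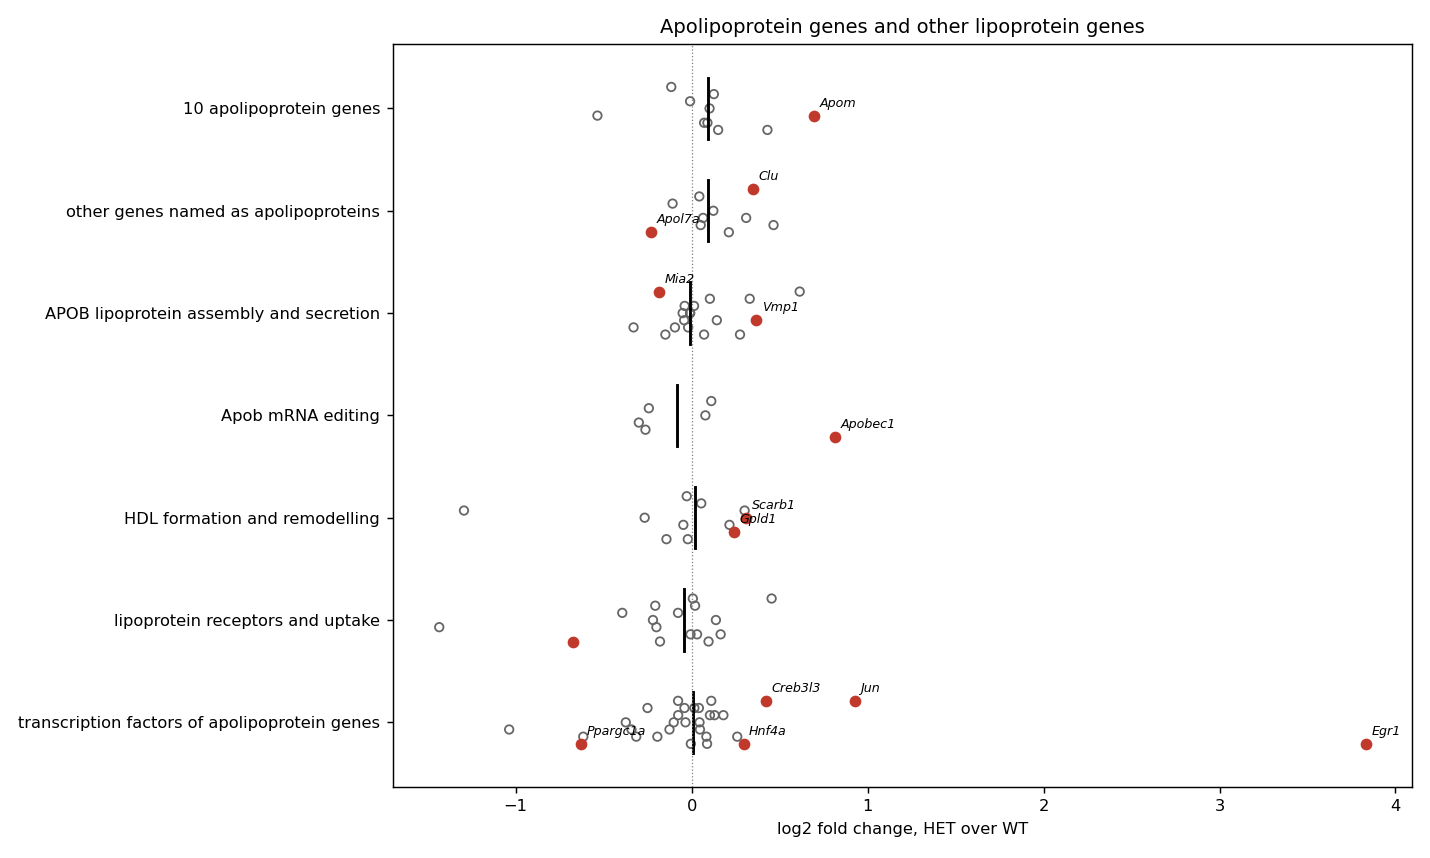
Log2 fold change, HET over WT (horizontal axis), of the 10 apolipoprotein genes (top row) and of the tested genes of the 6 lists. Each point is a gene, filled red where the unadjusted edgeR p is under 0.05, and the black bar is the median of the row. Row medians lie between -0.083 and 0.096.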

How the data were processed

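Livers were snap-frozen and RNA was extracted with Trizol, treated with DNaseI and depleted of ribosomal RNA before Illumina library preparation, per the labels' protocols. The submitters' processing notes name mm10, fastp 0.19.5, Bowtie2 2.2.9, GATK 3.8 and SAMtools 1.9. For the counting program, its annotation and its use of strand, nothing is given in the sources used here. The first deposited table has estimated counts, not normalized, in 8 columns, with whole numbers in 90.0% of cells. The origin of the fractional values is not stated. A second table, of the authors' own comparison, has per gene a ratio (fold), its log2, a p-value with its adjusted form, and a gene length in bases, per the file headers. Its header gives no direction, and 99.5% of its signs over 13972 shared genes were those of HET over WT.

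Counts were rounded, filtered with filterByExpr, which left 14261 genes, and scaled with TMM. Group was the single term of a quasi-likelihood fit in edgeR 4.0.16 (R 4.3.3), with p-values adjusted over all genes by the Benjamini-Hochberg method. CPM values use TMM-scaled totals. Alternatives were DESeq2 1.42.0, limma-voom 3.58.1, other scalings and filters, unrounded counts, the newer quasi-likelihood method and leaving out each library. The fit was tested on simulated data. No pair of libraries within a group was a duplicate (chi-square per gene 22.2 to 179). Column letters, W or H, give the group.

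The members, lists and tests were chosen with earlier results of these data known. Named genes are all members, Eif2s1, the 4 genes of lowest p in each list and among the neighbours, and the 5 genes nearest in profile to Apom (lowest p) and Apoa4 (largest spread). A listed gene that falls under this rule is not reported here. Coordinates come from GENCODE M21 on GRCm38, the assembly mm10 denotes, and promoters from RefSeq on GRCm38.p6.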

Additional observations from a re-analysis of the deposited data

Results flagged for a closer look

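Groups of 4 libraries were searched for a library far from the other 3, over 96 groups of named genes, and 3 groups were flagged. Chance alone flags about 1 in 20 groups, so 3 of 96 is no more than chance gives. Among the apolipoprotein genes the flagged group was Apoc3 in WT, at 998 CPM in W33 while the other WT livers had 1069 to 1084 CPM. Apol9a had 15.8 CPM in WT liver W90, against 30.4 to 34.8 CPM in the other WT livers. Pltp had 72.1 CPM in WT liver W76, against 132 to 147.5 CPM in the other WT livers.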

How the results depend on the processing

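No paired analysis was possible because the columns of the count table carry no replicate numbers. None of the 10 apolipoprotein genes passed under any of 19 alternatives, and Apom kept a positive estimate in each, from 0.57 to 0.83. Of 190 estimates for members, 185 kept their sign. Those that reversed were Apoa2 (-0.0098) and Apoe (-0.026) with library totals only, Apoa2 without H75 (-0.0086), and Apob without W76 (0.019) and without H15 (0.068). With 1 library left out, Apoa2 ranged up to 0.15, Apob down to -0.056, Apoe from 0.0015 to 0.13, Apoc1 from 0.028 to 0.17, Apoa5 from 0.041 to 0.16, Apoc3 from 0.074 to 0.21 and Apoc2 from -0.20 to -0.062, and among other named genes Tubb2a ranged from -0.53 to 0.031, reversed without H11. The members' share of counts differed by 0.0826 percentage points, and by -0.098 to 0.19 with 1 library left out. It was not computed with the members left out of the totals, which would then hold none of them. Over all genes, 0 passed with the settings used, 18 without a filter on low counts, 150 with DESeq2, 1 with the newer quasi-likelihood method, and 0 to 252 with 1 library left out, the most without H15 (123 higher, 129 lower) and 2 without W32. Of the listed lipoprotein genes 1 passed without a filter, 3 with DESeq2 and 0 to 6 with 1 library left out, the most without H15. Eif2s1 passed with DESeq2 (-0.44, adjusted p = 0.0159) and lay between -0.51 and -0.39 with 1 library left out. The causes were not tested. Counts of the members were high, so the spread between 4 libraries a group, not depth, set the width of the intervals.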
